A study of Mus musculus with 6 samples.

Results

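A set of 10 enzymes that make oxidants or remove them were followed in mouse podocytes kept in high glucose (HG), alone or with either of 2 forms of fibroblast growth factor 1 (FGF1). They were listed by name as superoxide dismutases (Sod1, Sod2), peroxide-removing enzymes (Cat, Gpx1, Gpx4, Prdx1), enzymes of glutathione supply and use (Gsr, Gsto1) and oxidant-producing enzymes (Nos2, Nox4), and each symbol was looked up among the gene names of the expression table. All 10 were found, each in 1 row of its own, among 24469 loci. Gsr was called higher and Nos2 was called lower with both proteins, by less than 2-fold, and no member was called different between the 2 proteins. Among all tested loci, 3.26% were called higher and 2.94% lower with the wild-type form, and 3.37% and 2.89% with the mutant. Both calls were lost when only the 4 libraries compared were fitted, and when a replicate block was added.

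The libraries came from MPCs, mouse podocytes of a line that was immortalized conditionally; podocytes are the epithelial cells on the outer side of the glomerular filter. All 6 cultures were expanded at 33 °C in medium with 5.5 mM glucose and 50 U/mL interferon gamma, differentiated for 10 days at 37 °C without interferon gamma, starved of serum for 12 h and then held in 25 mM glucose for 12 h. The HG group (n = 2) received no pretreatment. The second group (n = 2) was pretreated for 1 h with 100 ng/mL of rFGF1WT, recombinant wild-type FGF1, and the third (n = 2) for 1 h with 100 ng/mL of rFGF1ΔHBS, a mutant with weakened binding to heparan sulfate, the cofactor that helps FGF1 pair its receptors. Mannitol is named in the labels as an osmotic control, and no cells in normal glucose entered the comparisons, so the values describe what differed between cells that were all in HG. Both proteins were compared with the same 2 HG libraries, so their differences from HG are not independent of each other. Which libraries received which protein was taken from the labels. Displays of these libraries in the study differ, as its heat map seems to follow the labels and some bar plots do not. An exchange would swap every rFGF1WT and rFGF1ΔHBS value and turn the sign of the direct comparison. The labels do not say that replicates were separate cultures, and the p-values then measure only the spread between these libraries.

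Superoxide, made by oxidases and by the respiratory chain, is converted by superoxide dismutases into hydrogen peroxide. Catalase, glutathione peroxidases and peroxiredoxins reduce the peroxide; the glutathione peroxidases use reduced glutathione, which glutathione reductase restores with NADPH. In the kidney, Nox4 is the NADPH oxidase best known as a source of hydrogen peroxide, and inducible nitric oxide synthase (Nos2) makes nitric oxide, which reacts with superoxide. The values here are mRNA levels only, and in bulk RNA fewer expressing cells and less RNA per cell cannot be told apart.

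Gpx1 and Gpx4 share a feature that sets them apart from the other members, a TGA codon inside the reading frame that is read as selenocysteine, the catalytic residue. The stretches around it are shown from the GENCODE M21 transcripts (GRCm38, plus strand), 5′ to 3′, with the selenocysteine codon in capitals. In Gpx1 it is codon 47 of 201, at chr9:108339451-108339453 in exon 1 of 2, and in Gpx4 it is codon 129 of 253 of the longest coding transcript, at chr10:80054737-80054739 in exon 3 of 7. Txnrd3, a thioredoxin reductase that is no member but showed the largest difference among the redox genes described below, carries the codon as 614 of 615, next to the end of its reading frame in exon 16 of 16, at chr6:89674789-89674791.
Gpx1: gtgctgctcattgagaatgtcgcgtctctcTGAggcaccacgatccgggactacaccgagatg
Gpx4: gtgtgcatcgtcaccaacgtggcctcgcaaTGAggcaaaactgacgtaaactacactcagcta
Txnrd3: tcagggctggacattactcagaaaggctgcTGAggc

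Fragments per kilobase of transcript, scaled to the mapped fragments of the library (FPKM), summed to 179594 to 185168 per library. FPKM holds no read totals, but at loci with 1 listed transcript the low values piled up at steps of 0.0431 to 0.0448 FPKM times kilobases, which corresponds to a depth of 22.3 to 23.2 (in units of 1e+06 fragments) per library if a step is 1 fragment; 38.0% to 40.3% of 3202 to 3312 low values per library lay within 0.05 of a step from a whole number, against 10.0% for evenly spread values. The step was the commonest value in a preset range of these same low values. Part of that excess was thus built in, and the depth is a rough estimate. The test covered the 10562 loci whose mean FPKM was 1 or more, and 290 of these were listed at 0 in at least 1 library. The podocyte label was checked against marker genes: Podxl (14.8 to 17.6 FPKM) and Cd2ap (51.3 to 76.2 FPKM) were expressed, whereas Wt1 (at most 0.0731 FPKM) and Ptpro (at most 0.0479 FPKM) were near 0, and Nphs1 reached 0.942 FPKM. Cdh16 (68.4 to 96.2 FPKM), Lrp2 (22.2 to 28.5 FPKM) and Aqp1 (17.8 to 44.9 FPKM), known from tubule epithelium, were present. Other tubule markers were near 0, with Cdh1 at most 0.0182, Epcam at most 0.0756, Slc12a1 at most 0.0116 and Aqp2 at most 0.0188 FPKM. Slc34a1 and Umod were not found. Of the podocyte markers 7 were tested, with 2 called higher with rFGF1WT and 1 with rFGF1ΔHBS, while of 3 tested tubule markers and 3 tested mesangial and fibroblast markers none was called, and all 6 endothelial markers were below the filter. Of 8 housekeeping genes, 1 (Actb) was called higher with rFGF1WT and 0 with rFGF1ΔHBS. Among all tested loci 3.26% were called higher with rFGF1WT and 3.37% with rFGF1ΔHBS. The part of these markers in the results was not tested.

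**Figure D1:**
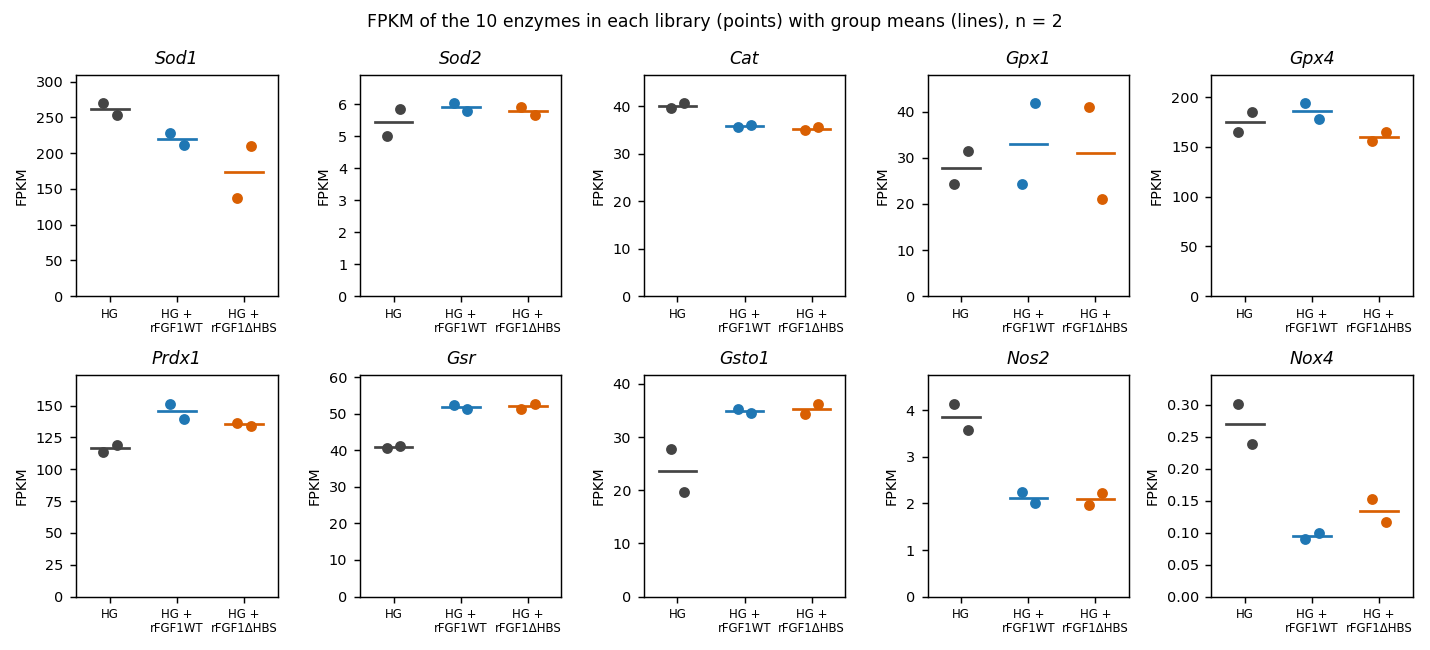
FPKM (vertical axes, each from 0) of the 10 enzymes in the 3 groups, with 1 point per library and a line at the group mean (n = 2). Gsr, Prdx1 and Gsto1 sit higher, and Sod1, Cat, Nos2 and Nox4 lower, in all 4 libraries with FGF1 than in both HG libraries. Of these, only Gsr and Nos2 were called. Of all tested loci, 58.2% did not overlap HG with rFGF1WT and 57.3% with rFGF1ΔHBS. The points of Gpx1 lie as far apart within groups as between them.

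Sod1, the copper and zinc superoxide dismutase of the cytosol, was the most abundant member, with a mean of 218.5 FPKM over the 6 libraries. It stood at 269 and 254 FPKM in HG, at 229 and 212 FPKM with rFGF1WT, and at 138 and 210 FPKM with rFGF1ΔHBS. Both treated groups lay below HG without overlap, but the first rFGF1ΔHBS library was far below the second. The difference from HG was -0.25 on the log2(FPKM + 1) scale with rFGF1WT (95% interval -0.82 to 0.32, adjusted p = 0.526) and -0.62 with rFGF1ΔHBS (-1.19 to -0.05, adjusted p = 0.175), and neither was called. Without the first rFGF1ΔHBS library the latter was -0.32. In that same library Srxn1, the sulfiredoxin that repairs overoxidized peroxiredoxins, was listed at 0.671 FPKM, against 9.58 to 12.2 FPKM in the other 5.

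Sod2, the manganese enzyme of mitochondria, was much lower per length than Sod1, at 5.02 and 5.83 FPKM in HG. It was 6.02 and 5.78 FPKM with rFGF1WT and 5.90 and 5.66 FPKM with rFGF1ΔHBS, so each treated group overlapped HG. The differences were 0.10 (95% interval -0.13 to 0.34) and 0.08 (-0.15 to 0.31) on the log2(FPKM + 1) scale, and limma's adjusted p was 0.506 and 0.610. Of the list of superoxide dismutation, 3 of 4 genes were tested and none was called in any comparison.

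Cat encodes catalase, the peroxisomal enzyme that splits hydrogen peroxide into water and oxygen. Its level was 39.5 and 40.5 FPKM in HG, 35.7 and 36.1 FPKM with rFGF1WT, and 34.9 and 35.6 FPKM with rFGF1ΔHBS. All 4 treated libraries lay below both HG libraries, in a narrow range. The differences of -0.15 (95% interval -0.27 to -0.03) and -0.18 (-0.30 to -0.06) were not called after correction over all loci (adjusted p = 0.134 and 0.10).

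Gpx1, the abundant glutathione peroxidase of the cytosol and mitochondria, varied most between replicates. It was 24.2 and 31.6 FPKM in HG, 24.3 and 41.8 FPKM with rFGF1WT, and 41.0 and 21.1 FPKM with rFGF1ΔHBS, so that replicates of a group differed by up to 1.94-fold and all groups overlapped. The differences from HG were 0.20 with rFGF1WT (95% interval -0.94 to 1.34) and 0.09 with rFGF1ΔHBS (-1.05 to 1.23). A rise of 2-fold lies inside both intervals, so one of that size would not have been detectable.

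Gpx4, the glutathione peroxidase that reduces lipid peroxides in membranes, was more abundant per length than Gpx1. It was measured at 165 and 185 FPKM in HG, at 194 and 178 FPKM with rFGF1WT, and at 156 and 165 FPKM with rFGF1ΔHBS. The rFGF1WT libraries overlapped HG, and the rFGF1ΔHBS libraries lay below both other groups. Against HG the gap was slight, with 164.69 FPKM in the second rFGF1ΔHBS library and 164.75 FPKM in the first HG library. It is counted below as no overlap. The difference was 0.09 (95% interval -0.13 to 0.31, adjusted p = 0.563) with rFGF1WT and -0.12 (-0.34 to 0.10, adjusted p = 0.431) with rFGF1ΔHBS.

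Prdx1, a peroxiredoxin that reduces hydrogen peroxide with electrons from thioredoxin, stood at 114 and 119 FPKM in HG. It was 151 and 139 FPKM with rFGF1WT and 136 and 134 FPKM with rFGF1ΔHBS, above HG in all 4 treated libraries. The difference with rFGF1WT was 0.32 (95% interval 0.16 to 0.48) and just missed the threshold (adjusted p = 0.0618), and it was called once the libraries were scaled by median ratios (adjusted p = 0.0369; 0.0369 to 0.199 over 15 alternatives). With rFGF1ΔHBS it was 0.21 (0.06 to 0.37, adjusted p = 0.12).

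Upstream sequence was available for 8 of the 10 members in RefSeq (GRCm38.p6), as 11 windows that run from 250 bases before a start site to 50 after it. The 2 without a window were Gsr and Nos2, the members that were called, so neither was searched. The core of the antioxidant response element, which the factor Nrf2 binds, was searched on both strands as TGACNNNGC. It occurred in 2 windows, those of Prdx1 and Sod1, and in 12.4% of all 32851 windows in the table. The AP-1 motif TGANTCA occurred in 1 member window, that of Prdx1, against 7.81% of all windows, and in Prdx1 1 of its 2 matches lies inside the match to the antioxidant core. The FOXO motif GTAAACA (3.65% of all windows) was in no member window, and the NF-κB consensus (8.46%) was in 4, of Cat, Prdx1, Gpx1 and Sod2. The windows of Prdx1 (chr4:116685349-116685648, plus strand) and Sod1 (chr16:90220512-90220811, plus strand) are shown because they hold the antioxidant core, with matches to it and to AP-1 in capitals; the core matches begin 133 and 56 bases before the start sites. A match is a run of letters and says nothing of binding in these cells.
Prdx1: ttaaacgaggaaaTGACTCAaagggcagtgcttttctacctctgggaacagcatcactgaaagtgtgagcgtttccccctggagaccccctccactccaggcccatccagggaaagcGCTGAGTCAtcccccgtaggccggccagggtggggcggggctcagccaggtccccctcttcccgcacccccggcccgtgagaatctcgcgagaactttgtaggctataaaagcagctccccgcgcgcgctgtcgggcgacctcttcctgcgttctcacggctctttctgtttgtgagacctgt
Sod1: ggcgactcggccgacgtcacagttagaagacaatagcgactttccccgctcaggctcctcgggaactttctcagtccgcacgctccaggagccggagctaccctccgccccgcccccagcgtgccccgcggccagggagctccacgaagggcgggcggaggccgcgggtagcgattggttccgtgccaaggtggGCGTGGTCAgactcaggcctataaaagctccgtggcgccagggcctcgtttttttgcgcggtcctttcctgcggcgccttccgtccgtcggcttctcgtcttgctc

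Gsr encodes glutathione reductase, which regenerates reduced glutathione from its oxidized form, and lies at chr8:33652523-33698163 on the plus strand (GRCm38). Its level was 40.7 and 41.1 FPKM in HG, 52.3 and 51.2 FPKM with rFGF1WT, and 51.4 and 52.7 FPKM with rFGF1ΔHBS. The 2 libraries of each group lay within 1.03-fold of each other, and every treated library was above both HG libraries. Gsr rose by 26.5% with rFGF1WT (51.7 ± 0.761 against 40.9 ± 0.255 FPKM, mean ± SD, n = 2), a log2 difference of 0.33 (95% interval 0.22 to 0.45) that passed limma's test (adjusted p = 0.0299). With rFGF1ΔHBS it rose by 27.3%, to 52.1 ± 0.924 FPKM, with a log2 difference of 0.34 (0.22 to 0.46, adjusted p = 0.0286). Leaving out any 1 of the 6 libraries ended both calls: the log2 differences then stayed between 0.32 and 0.35 with rFGF1WT and between 0.32 and 0.36 with rFGF1ΔHBS, and the adjusted p rose to between 0.0672 and 0.118 and to between 0.0683 and 0.111.

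Gsto1, an omega-class glutathione transferase with thiol transferase activity, was 27.7 and 19.6 FPKM in HG. It was 35.3 and 34.6 FPKM with rFGF1WT and 34.3 and 36.3 FPKM with rFGF1ΔHBS. All 4 treated libraries were above HG, whose own libraries differed by 1.42-fold. The log2 differences of 0.56 (95% interval 0.11 to 1.02) and 0.58 (0.12 to 1.04) were not called (adjusted p = 0.146 and 0.137). They hung on the HG libraries, at 0.32 and 0.34 without the second and 0.81 and 0.82 without the first. Gsto1 (chr19:47854970-47864790, plus strand) overlaps Cfap43 on the opposite strand. Cfap43 moved the same way as Gsto1, from 4.86 and 4.51 FPKM in HG to 7.40 and 7.56 FPKM with rFGF1WT. With rFGF1ΔHBS it was at 7.36 and 8.24 FPKM, and limma called it higher with both proteins (adjusted p = 0.0328 and 0.0273). Whether strand was used in counting is not given in the sources used here, and the part of Cfap43 in the Gsto1 values was not tested. Sod1 (chr16:90220754-90226329, plus strand) also overlaps a gene on the opposite strand, Scaf4, which was at 13.1 to 17.3 FPKM in the 6 libraries. The extent of either overlap was not measured.

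Nos2 encodes the inducible nitric oxide synthase and lies at chr11:78920787-78960254 on the plus strand. It was low, at 4.14 and 3.58 FPKM in HG, 2.24 and 2.01 FPKM with rFGF1WT, and 1.98 and 2.23 FPKM with rFGF1ΔHBS. All 4 treated libraries lay below both HG libraries and close to one another. Mean Nos2 fell by 45.0% with rFGF1WT (2.13 ± 0.164 against 3.86 ± 0.396 FPKM, n = 2), with a log2(FPKM + 1) difference of -0.64 (95% interval -0.91 to -0.36) and a limma adjusted p of 0.0458. With rFGF1ΔHBS it fell by 45.5%, to 2.10 ± 0.182 FPKM, with a difference of -0.65 (-0.92 to -0.37, adjusted p = 0.0441). The added 1 FPKM understates the change of a gene this low. At that depth the values would stand for 29.4 to 61.8 fragments per library over the shortest of its 3 listed transcripts and for 190.5 to 399.5 over the longest, so counting error alone is appreciable.

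Nos2 lost its call without any 1 of the 6 libraries (adjusted p 0.0899 to 0.147 with rFGF1WT and 0.0871 to 0.145 with rFGF1ΔHBS), with no filter on low loci (0.110 and 0.102) and after quantile normalization (0.0591 and 0.0536), and under median-ratio scaling it lost the call with rFGF1WT (-0.60, adjusted p = 0.0529) while the call with rFGF1ΔHBS stayed just past the threshold (0.0497). It passed in 3 of 14 alternatives with rFGF1WT and in 4 of 14 with rFGF1ΔHBS; over the 14 alternatives its adjusted p ran from 0.0407 to 0.147 and from 0.0383 to 0.145, with the same sign throughout. Macrophages are a classic source of Nos2, and 4 of their defining genes were near 0 in all 6 libraries, with Ptprc at most 0.0548, Adgre1 at most 0.0136, Itgam at most 0.0407 and Lyz2 at most 0.0982 FPKM. Of the 10 macrophage markers, 3 were tested, the rows of Cd14, Csf1r and Cd68. Cd14, a receptor for lipopolysaccharide, was expressed at 6.89 and 12.4 FPKM in HG, 6.69 and 6.36 FPKM with rFGF1WT, and 11.3 and 4.35 FPKM with rFGF1ΔHBS, and was not called. Csf1r, the receptor for colony-stimulating factor 1, fell from 9.56 and 10.7 FPKM to 3.21 and 3.68 FPKM with rFGF1WT (adjusted p = 0.0114) and to 3.93 and 3.76 FPKM with rFGF1ΔHBS (adjusted p = 0.0140). The row that holds Cd68 is shared with Eif4a1 and was called higher with both proteins, at 53.1 and 50.1 FPKM in HG and 63.1 to 67.3 FPKM in the treated libraries. The summed level of the 10 markers was 69.9 and 73.5 FPKM in HG, 76.6 and 73.4 FPKM with rFGF1WT, and 82.6 and 75.7 FPKM with rFGF1ΔHBS, most of it from the Cd68 row, and its part in the Nos2 result was not tested.

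Nox4, at chr7:87246096-87398710 on the plus strand, was the lowest member and did not reach the mean of 1 FPKM that the test required. It was 0.302 and 0.238 FPKM in HG, 0.0907 and 0.0988 FPKM with rFGF1WT, and 0.152 and 0.117 FPKM with rFGF1ΔHBS. The 3 groups did not overlap, and their order was HG, rFGF1ΔHBS, rFGF1WT. In the fit without a filter over all 24469 loci, the log2(FPKM + 1) differences from HG were -0.21 (95% interval -0.31 to -0.12, adjusted p = 0.0902) and -0.16 (-0.26 to -0.07, adjusted p = 0.139), and neither was called. The added 1 FPKM shrinks a change at this level: with 0.1 in its place the differences were -0.92 (adjusted p = 0.162) and -0.66 (adjusted p = 0.271), and the ratios of mean FPKM were 0.351 and 0.498. These values would stand for 1.2 to 4.1 fragments per library over the shortest of its 6 listed transcripts and for 7.9 to 27.2 over the longest, which leaves little room to measure a change.

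**Figure D2:**
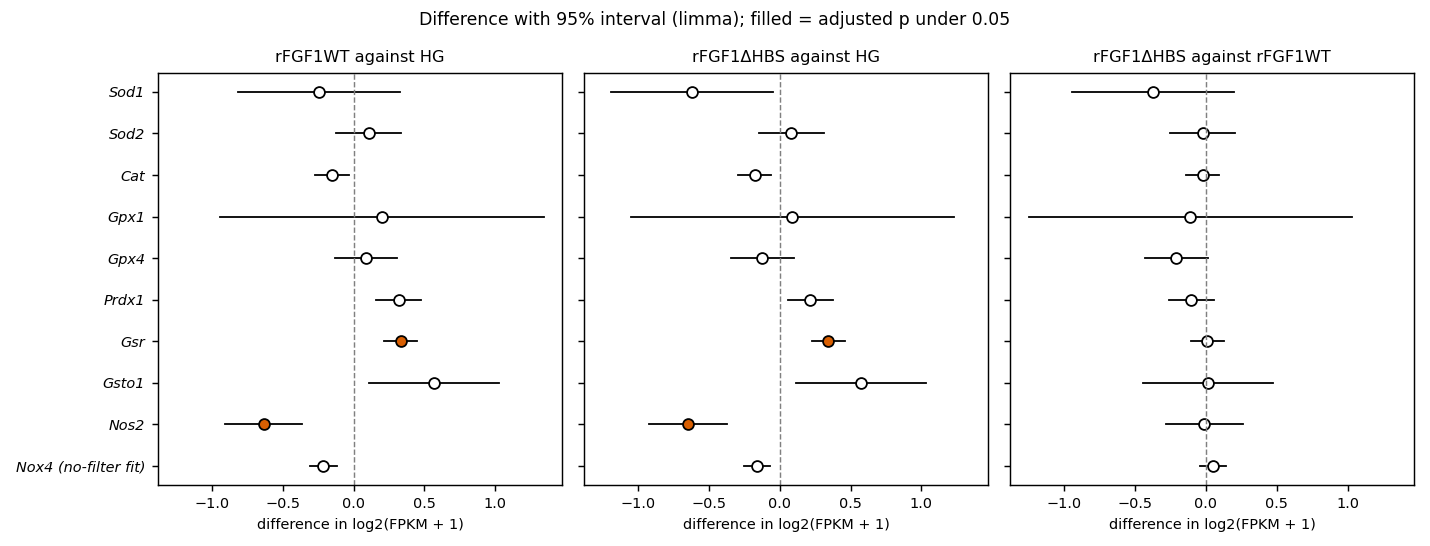
Difference in log2(FPKM + 1) (horizontal axes) of each enzyme in the 3 comparisons, with 95% intervals from the limma fit of 6 libraries; filled points have an adjusted p under 0.05, and Nox4 is from the fit without a filter. Gsr (0.33 and 0.34) and Nos2 (-0.64 and -0.65) are filled in both comparisons with HG, and no point is filled between the 2 proteins.

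Of the 9 members tested, 1 (Gsr) was called higher with rFGF1WT than in HG, where 3.26% of all tested loci were called higher, and 1 (Nos2) was called lower, where 2.94% of loci were. With rFGF1ΔHBS the counts were again 1 higher (Gsr) against 3.37% of loci and 1 lower (Nos2) against 2.89%. With a limit of at least 2-fold added, 0 members were called in either comparison by limma, where 1.01% and 0.899% of loci were called; without correction, 5 and 6 of the 9 had p under 0.05, as did 24.8% and 24.9% of all tested loci. Groups did not overlap for 6 of 9 members with rFGF1WT (58.2% of all tested loci) and for 7 of 9 with rFGF1ΔHBS (57.3%), so lack of overlap was the commoner case among all loci as well. The median difference of the 9 members was 0.10 with rFGF1WT and 0.08 with rFGF1ΔHBS, beside -0.04 and -0.04 over all tested loci.

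By role, the summed FPKM of Nos2 and Nox4 was 4.45 and 3.82 in HG, 2.33 and 2.11 with rFGF1WT, and 2.13 and 2.35 with rFGF1ΔHBS, nearly all of it Nos2. The summed FPKM of Gsr and Gsto1 was 68.5 and 60.7 in HG, 87.6 and 85.8 with rFGF1WT, and 85.7 and 89.0 with rFGF1ΔHBS. The 4 peroxide-removing enzymes together were at 342 and 376 FPKM in HG, at 405 and 395 FPKM with rFGF1WT, and at 368 and 355 FPKM with rFGF1ΔHBS. Sod1 and Sod2 together were at 274 and 260 FPKM in HG, at 235 and 218 FPKM with rFGF1WT, and at 143 and 215 FPKM with rFGF1ΔHBS. Nearly all of that was Sod1, which was not called, while Sod2 overlapped between all groups. The sums for oxidant production and for superoxide dismutation were lower in every treated library than in HG. That of Gsr and Gsto1 was higher, but Gsto1 was not called. That of peroxide removal overlapped between HG and rFGF1ΔHBS. Among all tested single loci, groups did not overlap HG for 58.2% with rFGF1WT and 57.3% with rFGF1ΔHBS, and the sums were not tested.

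**Figure D3:**
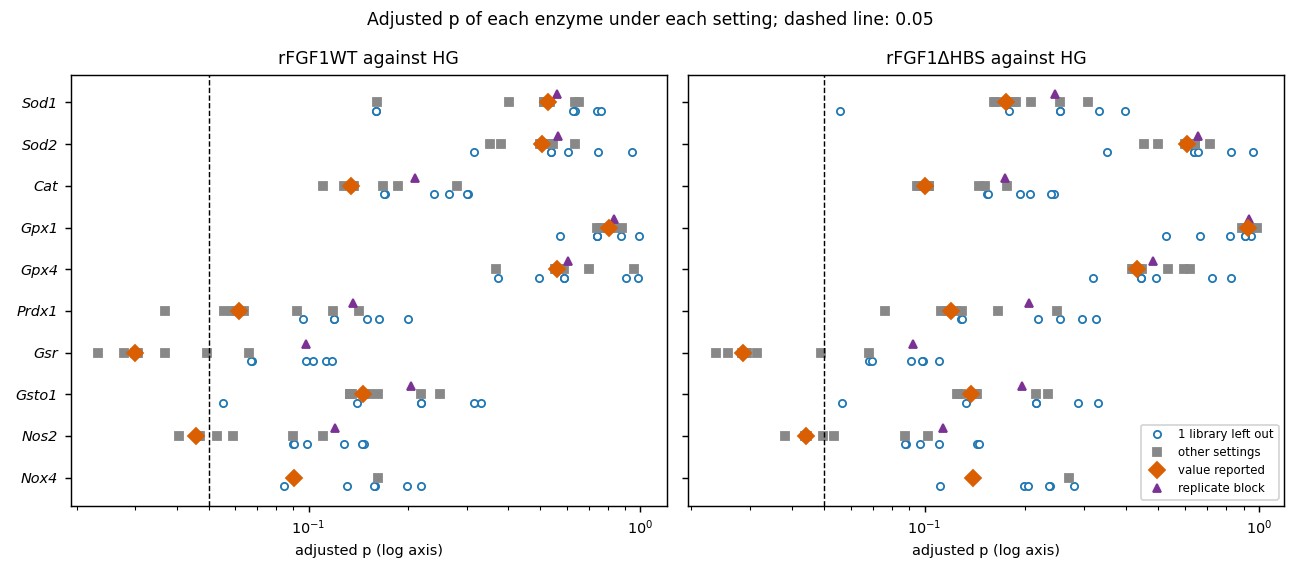
Adjusted p (horizontal log axis) of each enzyme against HG as reported (diamonds), with a replicate block (triangles), with 1 library left out (open circles) and under the other settings (squares); the dashed line marks 0.05. Only Gsr, Nos2 and, with rFGF1WT under median-ratio scaling, Prdx1 reach the left of the line, and no open circle does.

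The direct comparison of the 2 proteins asked whether weaker binding to heparan sulfate altered the response of these enzymes. None of the 9 tested members was called between rFGF1ΔHBS and rFGF1WT by limma, and 0 had an unadjusted p under 0.05, where 4.87% of all tested loci did; among all tested loci 0.294% were called higher, 0.256% lower and 0.350% at 2-fold or more. The 2 groups did not overlap for 4 of 9 members, beside 34.5% of all loci. The difference was 0.01 for Gsr (95% interval -0.11 to 0.13) and -0.01 for Nos2 (-0.28 to 0.26), which leaves room for a ratio of 0.928 to 1.09 and of 0.821 to 1.20 on the FPKM + 1 scale. For Gsto1 it was 0.01 (-0.45 to 0.47), for Cat -0.02 (-0.14 to 0.10) and for Prdx1 -0.10 (-0.26 to 0.06). The smallest unadjusted p was that of Gpx4, with a difference of -0.21 (-0.43 to 0.01; limma's adjusted p = 0.905), and both rFGF1ΔHBS libraries were below both rFGF1WT libraries. A wider interval belonged to Sod1 (-0.37, -0.94 to 0.20), which was -0.07 without the low first rFGF1ΔHBS library and -0.67 without the second, and the widest to Gpx1 (-0.11, -1.25 to 1.03).

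The 9 lists of redox genes set the members beside the rest of their pathways. Their counts are to be read beside the shares over all tested loci. With rFGF1WT 3.26% of loci were called higher and 2.94% lower, and with rFGF1ΔHBS 3.37% and 2.89%. Between the proteins the shares were 0.294% and 0.256%. Among the list of catalase and glutathione peroxidases 4 genes were tested, among peroxiredoxins and sulfiredoxin 7, and among NADPH oxidases and their subunits 3, and none was called in any of the 3 comparisons. Of 9 tested genes of glutathione synthesis and recycling, 1 was called, and it was Gsr; its median was 0.16 with rFGF1WT and 0.09 with rFGF1ΔHBS.

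Of 7 tested genes of the thioredoxin system, which reduces the peroxiredoxins, 1 was called higher with each protein. This was Txnrd3, the thioredoxin reductase best known from testis, whose selenocysteine codon is printed above. It stood at 5.93 and 5.82 FPKM in HG, at 27.9 and 24.7 FPKM with rFGF1WT and at 27.1 and 26.0 FPKM with rFGF1ΔHBS. The log2 differences were 1.99 (adjusted p = 0.00345) and 2.0 (adjusted p = 0.00392), and Txnrd3 was the only gene of the 9 lists called at 2-fold.

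Of 11 tested glutathione S-transferases, 1 was called, Gstm2, which went from 20.5 and 20.1 FPKM in HG to 26.3 and 26.0 FPKM with rFGF1WT and 26.8 and 26.7 FPKM with rFGF1ΔHBS (adjusted p = 0.0291 and 0.0248). Of 9 tested genes of nitric oxide synthesis, Nos2 was lower and Slc7a1 was higher with both proteins. Slc7a1, a transporter that brings arginine, the substrate of Nos2, into the cell, went from 25.3 and 24.1 FPKM to 36.5 and 37.8 FPKM and to 38.1 and 37.9 FPKM (adjusted p = 0.0164 and 0.0161). Among 8 tested genes of other oxidant-producing oxidases, 1 was called, Pcyox1, prenylcysteine oxidase, which forms hydrogen peroxide as it degrades prenylcysteine. It rose from 15.1 and 15.5 FPKM to 27.7 and 26.8 FPKM with rFGF1WT and to 28.1 and 26.0 FPKM with rFGF1ΔHBS (adjusted p = 0.0132 and 0.0142). No gene of the 9 lists was called between the 2 proteins.

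**Figure D4:**
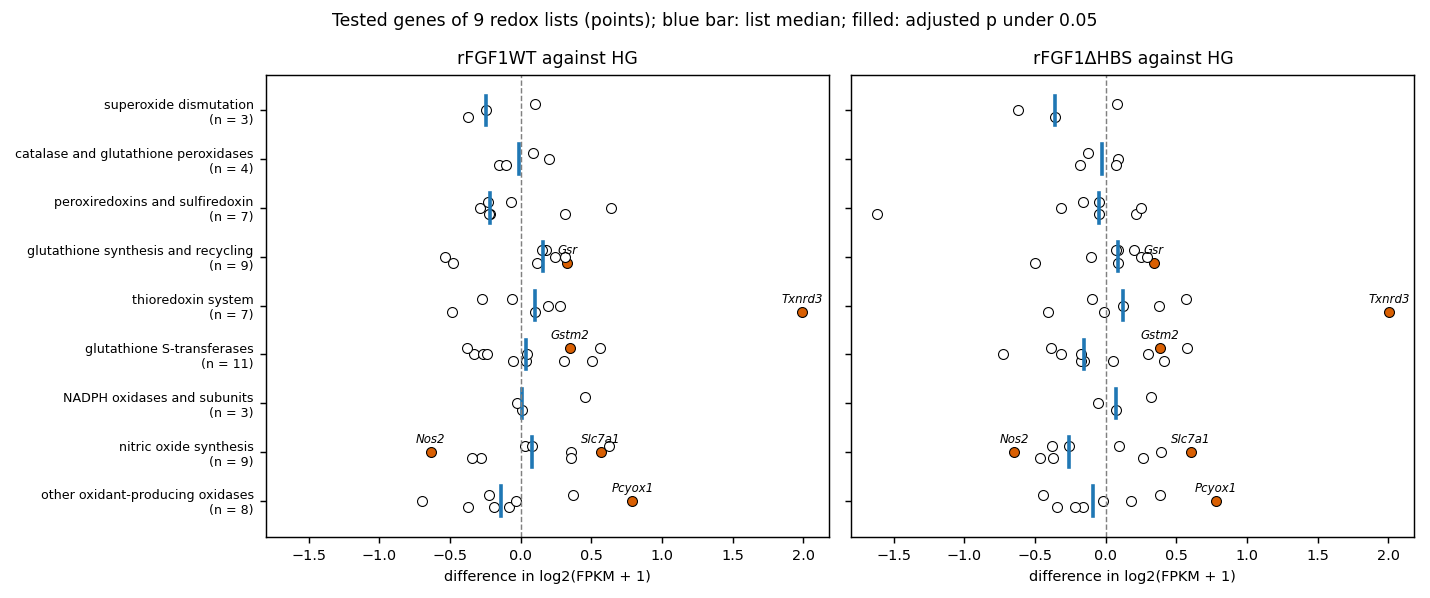
Difference in log2(FPKM + 1) (horizontal axes) of the tested genes of 9 redox lists against HG, with 1 point per gene and a blue bar at the list median; filled points, named, have an adjusted p under 0.05. The same 6 genes are filled with both proteins, with Txnrd3 far to the right at 1.99 and 2.0 and Nos2 the one filled point on the left.

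The loci whose pattern over the 6 libraries was most like Gsr were Sema3c, Spry4 and Rrp12, with Pearson's r of log2(FPKM + 1) of 0.9994, 0.9991 and 0.9989. Those most like Nos2 were Tnip1, Scpep1 and Cnpy2, with r of 0.9986, 0.9972 and 0.9967. The 6 libraries share the contrast of HG with the 4 treated libraries, and r was over 0.9 with Gsr for 799 and with Nos2 for 884 of 10210 loci. Spry4 differed far more in size than Gsr, at 0.0568 and 0.0590 FPKM in HG and 1.48 to 1.69 FPKM in the treated libraries, whereas Tnip1 was at 22.8 and 21.9 FPKM in HG and 17.8 to 18.5 FPKM in the treated libraries.

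Copies of a gene can take each other's fragments. Among GENCODE transcripts, those of other genes matched 3 members over at least 300 bases at 95% identity or more. These were 1 other gene for Sod1, 2 for Gpx4 and 2 for Prdx1, and the ones listed in the table had a mean of 0.132 FPKM (Sod1) and 0.0780 FPKM (Prdx1), far below the members themselves.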

How the data were processed

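RNA-Seq covered 6 libraries of MPCs in 3 groups of 2, grouped by the labels. The authors sequenced poly(A) RNA from paired ends, summarised it and deposited FPKM; the submitters' processing notes name Bowtie 0.12.2, HISAT2 2.0, StringTie 1.3.0 and build mm8, without roles. Of the Ensembl transcripts listed, 99.6% were in GENCODE M21, from which positions come.

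Here log2(FPKM + 1) was fitted in limma 3.58.1 (R 4.3.3; trended eBayes, all 6 libraries, 3 residual degrees of freedom) over the 10562 loci with mean FPKM of at least 1, and called at a Benjamini-Hochberg adjusted p under 0.05. Exact permutation of 2 against 2 cannot go below 0.333. Transcripts were compared with BLAST 2.17.0.

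Members and lists were chosen with earlier results of these data known. All members were named, with list genes called in any comparison (at most 4 per list, or at 2-fold), defining markers, and the 3 loci most like each called member. Eif4a1, Srxn1, Cfap43 and Scaf4 were named after their values were seen. The 15 alternatives changed the pseudocount, filter, scaling, libraries fitted, empirical Bayes, or block. The results of 2 marker genes are not reported here.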

Additional observations from a re-analysis of the deposited data

How the results depend on the processing

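Counts of called loci against HG were 654 (rFGF1WT) and 661 (rFGF1ΔHBS), and 58 between the proteins. They were 407 and 386 with no filter, 170 and 189 with only the 4 libraries compared, and 134 to 195 and 118 to 198 with 1 library left out; between the proteins they were 31 at a mean FPKM of at least 5, 19 among loci above 0 in all 6 libraries and 43 to 107 with 1 library left out. The 2 members called with each protein became 1 with no filter (Gsr), 1 at a mean FPKM of at least 5 (Gsr, as Nos2 is below that filter) and 1 after quantile normalization (Gsr). They became 0 with only the 4 libraries compared. Both calls were also lost with any of the 6 libraries left out. That held even for a library of the group not compared, whose removal left the difference itself unchanged. Fewer libraries leave fewer degrees of freedom. Under median-ratio scaling 2 were still called with rFGF1WT by limma, but Prdx1 (adjusted p = 0.0369) had entered and Nos2 (0.0529) had dropped out. Deviations of same-numbered replicates from their group means had r of -0.02, 0.10 and -0.05, which cannot settle whether the samples were paired. With the replicate block 41, 39 and 6 loci and 0 members were called. Median-ratio scaling raised the share of higher calls from 52.6% to 63.6% with rFGF1WT and from 53.9% to 62.8% with rFGF1ΔHBS; the cause was not tested.

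Signs of uncalled differences turned as follows. With 1 library left out, Gpx1 ranged from -0.18 to 0.58 with rFGF1WT and from -0.37 to 0.55 with rFGF1ΔHBS, Sod2 with rFGF1ΔHBS from -0.0112 to 0.172, and between the proteins Gpx1 from -0.57 to 0.35, Sod2 from -0.0500 to 0.0013, Nos2 from -0.0702 to 0.0494, Gsr from -0.0088 to 0.0267 and Gsto1 from -0.0275 to 0.0519; under median-ratio scaling Gsr between the proteins was -0.0019. No called difference changed sign. With 2 libraries per group at this depth, a rise of Gpx1 under 2-fold could not be measured, nor could one of Nox4 be well resolved.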
